A study of Homo sapiens with 6 samples.

Results

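The genes described here are 10 RNA-binding proteins of neurons: *CELF2*, *CELF4* and *CELF5*, *ELAVL2*, *ELAVL3* and *ELAVL4*, *RBFOX1*, *RBFOX2* and *RBFOX3*, and *MSI1*. Every probe set annotated to exactly 1 of these symbols was taken, which gave 48 of the 49495 probe sets on the array and 10 of the 18244 genes named by it. *CELF2* and *RBFOX3* were chosen on their measured values in these arrays, by the replicate number and by the treatment, so their differences are described without a test. The cells were SH-SY5Y, an established line from a human neuroblastoma that is widely used as a neuronal model. For 3 samples the cells received anti-miR-137, an oligonucleotide that blocks the microRNA miR-137, and for 3 samples Anti-miR Negative Control #1, both at 15 pM with Lipofectamine RNAiMAX, 24 hours after seeding. Total RNA was isolated 72 hours after transfection, and 1 array was hybridised per sample, numbered replicate 1 to 3 in each group. The labels do not say whether a number stands for a separate culture or a shared day; p-values here weigh differences against array-to-array spread, part of which may be technical. All values are log2 probe set values after robust multi-array averaging (RMA), and differences are on the log2 scale.

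CELF, ELAVL, RBFOX and Musashi proteins bind short motifs in RNA and set how transcripts are spliced, stabilised and translated. ELAVL proteins, also called Hu proteins, bind AU-rich and U-rich stretches and stabilise mRNAs; ELAVL2, ELAVL3 and ELAVL4 are the neuronal members and ELAVL1 (HuR) is found in most cells. RBFOX proteins bind GCAUG in introns and regulate alternative exons, and RBFOX3 is the antigen NeuN, a widely used label of mature neurons. CELF proteins bind GU-rich RNA and act in splicing and mRNA decay, while MSI1, Musashi, is known as a translational regulator of neural progenitors.

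The microRNA that was inhibited is shown first, with its seed marked. Its mature sequence from RefSeq (GRCh38.p14) lies at chr1:98046091-98046113 on the minus strand, written 5′ to 3′ with the seed, bases 2 to 8, in capitals.
hsa-miR-137-3p: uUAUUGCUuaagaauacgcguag
The mRNA sequences that could hold matches to this seed were not used here.

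Promoters are shown for *ELAVL4*, *ELAVL2* and *CELF4*. On the brightest probe set of each gene, both replicate 3 arrays were above all other arrays. Both replicate 1 arrays were lowest in *ELAVL4*, and both replicate 2 arrays were lowest in *CELF4*. In *ELAVL2* the arrays of replicates 1 and 2 overlapped. Each promoter is the RefSeq window (GRCh38.p14) from 250 bases before to 50 bases after a transcription start. The listed start furthest 5′ was taken, and the window is written 5′ to 3′ on the strand of the gene. RefSeq lists 7 such windows for *ELAVL4*, 6 for *ELAVL2* and 1 for *CELF4*, and the array does not tell which start was used. The set of windows used held 0 for *ELAVL3*, so none is shown for it. Capitals mark matches, on either strand, to CAGCTG (an E-box), GGGCGG (a GC box), CCAAT and TATAAA, none of which overlapped another in these windows. The *ELAVL4* window lies at chr1:50047805-50048104 on the plus strand, the *ELAVL2* window at chr9:23826191-23826490 on the minus strand, and the *CELF4* window at chr18:37485743-37486042 on the minus strand.
ELAVL4: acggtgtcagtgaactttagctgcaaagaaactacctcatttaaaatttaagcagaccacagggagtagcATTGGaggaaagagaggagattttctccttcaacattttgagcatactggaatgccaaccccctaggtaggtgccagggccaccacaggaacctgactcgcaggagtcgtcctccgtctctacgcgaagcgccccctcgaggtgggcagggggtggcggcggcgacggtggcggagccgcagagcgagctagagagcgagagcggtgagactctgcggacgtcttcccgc
ELAVL2: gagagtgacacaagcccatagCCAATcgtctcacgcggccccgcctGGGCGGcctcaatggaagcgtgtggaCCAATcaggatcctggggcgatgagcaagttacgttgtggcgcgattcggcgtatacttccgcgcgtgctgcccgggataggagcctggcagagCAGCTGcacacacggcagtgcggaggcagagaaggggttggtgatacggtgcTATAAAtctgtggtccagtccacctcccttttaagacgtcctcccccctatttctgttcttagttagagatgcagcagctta
CELF4: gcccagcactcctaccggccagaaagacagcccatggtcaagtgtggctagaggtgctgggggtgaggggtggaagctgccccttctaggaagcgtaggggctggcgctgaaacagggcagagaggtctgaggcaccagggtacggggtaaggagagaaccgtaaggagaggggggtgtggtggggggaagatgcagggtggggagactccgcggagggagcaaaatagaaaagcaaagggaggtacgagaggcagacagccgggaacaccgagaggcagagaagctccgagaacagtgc
The *ELAVL2* window held 1 E-box, 1 GC box, 2 CCAAT matches and 1 TATAAA match, the *ELAVL4* window held 1 CCAAT match, and the *CELF4* window held no match to these letters. Among 35116 promoter windows of the same length, 17.9% held the E-box, 45% the GC box, 34.6% CCAAT and 11.5% TATAAA. The CG dinucleotide occurred 20 times in the *ELAVL4* and 20 times in the *ELAVL2* window and 11 times in the *CELF4* window, with a median of 14 over all windows. The other windows of *ELAVL4* held between 1 and 9 and those of *ELAVL2* between 11 and 40, so the windows shown do not stand for all starts.

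All 10 genes had at least 1 probe set bright enough to be tested, but the families differed in how many. Probe sets with a 6-array mean under 5.69, the 40th percentile on this array, were set aside as dim. All 8 probe sets of the 3 *ELAVL* genes were kept, against 11 of 21 for the *RBFOX* genes, 6 of 17 for the *CELF* genes and 1 of 2 for *MSI1*, 26 of 48 in all. All 9 probe sets of *RBFOX2* were kept, with means between 6.38 and 11.28. Only 1 of 9 was kept for *RBFOX1* (mean 6.05), 1 of 10 for *CELF2* (6.12) and 1 of 3 for *RBFOX3* (6.58). For scale, 360 probe sets of olfactory receptor genes, which a neuroblastoma line is not known to use, had means with a median of 4.42 and a 95th percentile of 6.06. The kept probe sets of *RBFOX1* and *CELF2* thus lay close to that level. The 22 dim probe sets are described by their values and were not tested. Levels of different probe sets cannot be compared as amounts of mRNA, since each has its own probes.

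None of the 8 tested genes had a probe set that passed the test between anti-miR-137 and control arrays. With limma and Benjamini-Hochberg adjustment over all 27514 kept probe sets, 0 of the 24 kept probe sets of the 8 tested genes had an adjusted p under 0.05, where percent called over the whole table was 0%. Without adjustment, 0 of 24 had p under 0.05 in limma, against 2.49% of all kept probe sets. Some other settings, given at the end, gave 1 member probe set. Means were higher in anti-miR-137 arrays for 9 (34.6%) and lower for 17 of the 26 kept probe sets, against 49.3% higher over all kept probe sets. The median difference was -0.025, against -0.0015 over all kept probe sets. Of the 17 lower ones, *RBFOX2* held 8 and *ELAVL3* 4. On the brightest probe set of each of the 10 genes, 6 means were higher and 4 lower, with a median difference of 0.040. The groups did not overlap for 1 of the 24 tested probe sets, of *RBFOX2*, where the share over all kept probe sets was 6.9%. They also did not overlap for the kept probe set of *RBFOX3*, a gene chosen on this difference. The 95% confidence interval of the difference lay within 0.5 log2 units of 0 for 22 of the 24 tested probe sets, and its median half-width was 0.25.

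**Figure D1:**
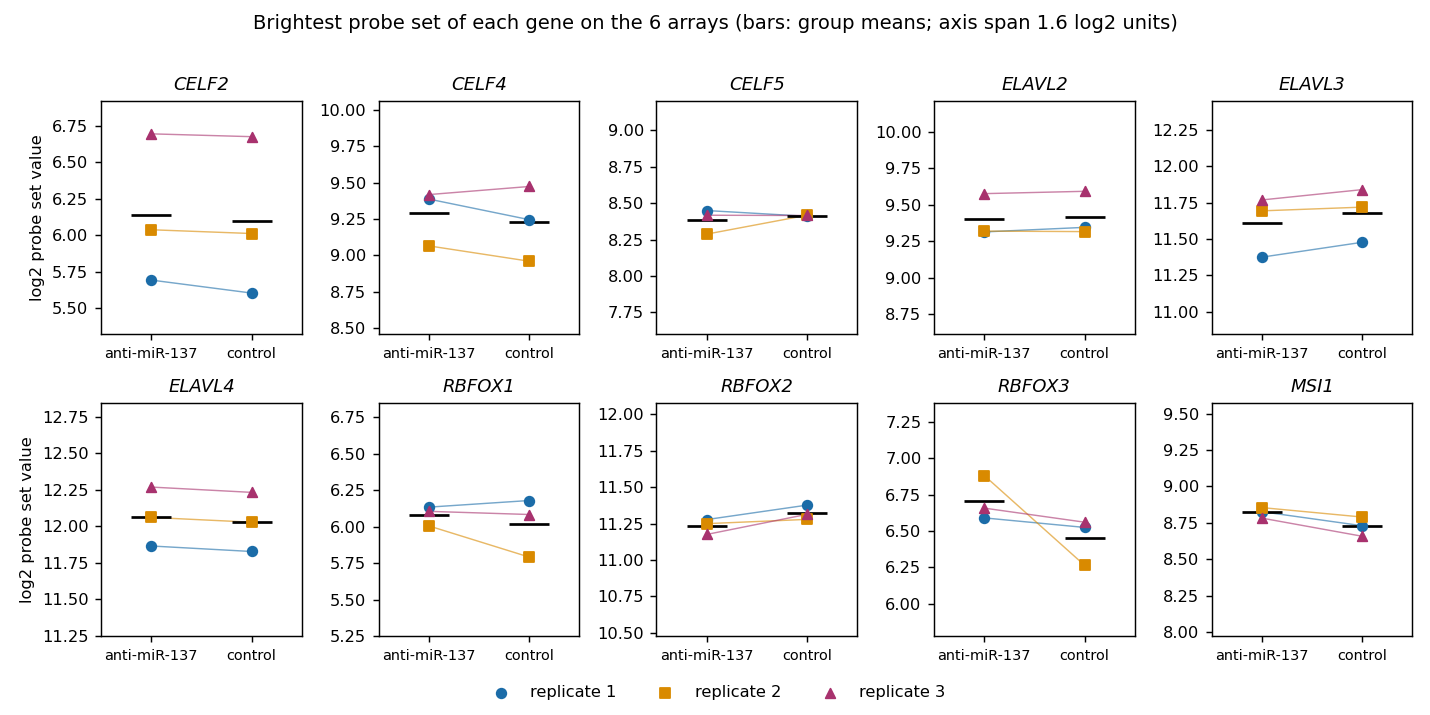
Each panel shows the brightest probe set of 1 gene, with the log2 value on the vertical axis (1.6 log2 units in every panel), anti-miR-137 arrays left and control arrays right; points are arrays, lines join arrays of the same replicate number and bars are group means. The bars of the groups lie close together in *ELAVL4* (12.07 and 12.03), while the points separate by replicate number.

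The *ELAVL* genes had nearly the same values in both groups. *ELAVL4*, which encodes the neuronal stabilising factor HuD, measured 11.87, 12.06 and 12.27 in the anti-miR-137 arrays of replicates 1 to 3, and 11.83, 12.03 and 12.23 in the control arrays. Each anti-miR-137 array stood between 0.033 and 0.038 log2 units above the control array of its number, and the groups overlapped almost fully. The mean difference was 0.036 with a 95% confidence interval of -0.28 to 0.35 (limma, adjusted p = 1.00). The 2 other probe sets gave -0.017 and 0.058. *ELAVL3*, which encodes HuC, measured 11.38, 11.69 and 11.77 in anti-miR-137 arrays and 11.48, 11.72 and 11.84 in control arrays, a difference of -0.066 (-0.37 to 0.24; limma, adjusted p = 1.00). Its 3 other probe sets also had lower means in anti-miR-137 arrays, from -0.12 to -0.030, and the groups overlapped for each. *ELAVL2*, which encodes HuB, measured 9.31, 9.32 and 9.58 in anti-miR-137 arrays and 9.34, 9.31 and 9.59 in control arrays. Its difference was -0.015 (-0.26 to 0.24; limma, adjusted p = 1.00).

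Among the *CELF* genes, the probe sets of *CELF4* went in both directions. *CELF4*, a splicing and translation factor restricted largely to neurons, measured 9.39, 9.07 and 9.42 on its brightest probe set in anti-miR-137 arrays and 9.25, 8.96 and 9.47 in control arrays. The difference was 0.064 (-0.28 to 0.41; limma, adjusted p = 1.00), and the second probe set also gave 0.064. The 2 dimmer kept probe sets went the other way, with -0.26 and -0.15, and 2 dim ones gave -0.078 and -0.087. The probe set at -0.26 held the smallest unadjusted p of all tested members, 0.087 in limma (adjusted p = 1.00), with 6.41, 5.86 and 6.21 in anti-miR-137 arrays and 6.43, 6.38 and 6.44 in control arrays. Most of that difference came from anti-miR-137 replicate 2. *CELF5*, a neuronal member with 1 probe set, measured 8.45, 8.29 and 8.42 in anti-miR-137 arrays and 8.41, 8.42 and 8.42 in control arrays, a difference of -0.029 (-0.19 to 0.13; limma, adjusted p = 1.00). *CELF2*, a broadly expressed regulator of splicing, measured 5.69, 6.04 and 6.70 in anti-miR-137 arrays and 5.60, 6.01 and 6.68 in control arrays. Its difference of 0.045 was small beside the spread within each group (SD 0.51 and 0.54, n = 3 each), and leaving out anti-miR-137 replicate 3 gave -0.23, leaving out control replicate 1 gave -0.20. The 9 dim probe sets of *CELF2* gave between -0.16 and 0.28, 5 of them higher and 4 lower.

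*RBFOX2* leaned lower in anti-miR-137 arrays on most of its probe sets, without passing the test. *RBFOX2*, the family member found well beyond neurons, measured 11.28, 11.25 and 11.18 on its brightest probe set in anti-miR-137 arrays and 11.38, 11.28 and 11.31 in control arrays. The groups did not overlap on this probe set, and the difference was -0.089 (-0.24 to 0.065; limma, adjusted p = 1.00). Of its 9 probe sets, 8 had lower means in anti-miR-137 arrays, between -0.13 and -0.016, and 1 had a mean higher by 0.0094. In 3 of the 9 the anti-miR-137 array was lower in every replicate number. Of the 26 kept member probe sets, 7 were lower and 6 higher in every number, and the share over all kept probe sets was not counted. The 9 probe sets of *RBFOX2* measure transcripts of 1 gene and are not separate evidence. The lowest bound of their 95% intervals was -0.35 and the highest 0.21.

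The probe sets of *RBFOX3* went in both directions. That probe set measured 6.59, 6.88 and 6.66 in anti-miR-137 arrays and 6.52, 6.26 and 6.56 in control arrays, a difference of 0.26. The groups did not overlap, but the arrays were uneven: within replicate 2 the difference was 0.62, within replicates 1 and 3 it was 0.065 and 0.097. Without anti-miR-137 replicate 2 the difference was 0.17, and without control replicate 2 it was also 0.17. It was 0.32 without anti-miR-137 replicate 1, the highest with an array left out, and 0.40 with array weights. The 2 dim probe sets of *RBFOX3*, with means of 4.78 and 4.55, gave -0.10, with groups that did not overlap, and 0.040. *RBFOX1*, a splicing factor of neurons, heart and muscle, measured 6.13, 6.005 and 6.10 in anti-miR-137 arrays and 6.18, 5.79 and 6.08 in control arrays. Its difference was 0.063 (-0.19 to 0.31; limma, adjusted p = 1.00), and its 8 dim probe sets gave between -0.15 and 0.27, 6 of them higher and 2 lower. *MSI1* measured 8.83, 8.85 and 8.78 in anti-miR-137 arrays and 8.73, 8.79 and 8.66 in control arrays. The anti-miR-137 array was higher in every number, by 0.065 to 0.12, and the groups overlapped slightly. That order held for 6 of the 26 kept member probe sets. The *MSI1* difference was 0.095 (-0.060 to 0.25; limma, adjusted p = 1.00), and its dim probe set gave 0.017.

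**Figure D2:**
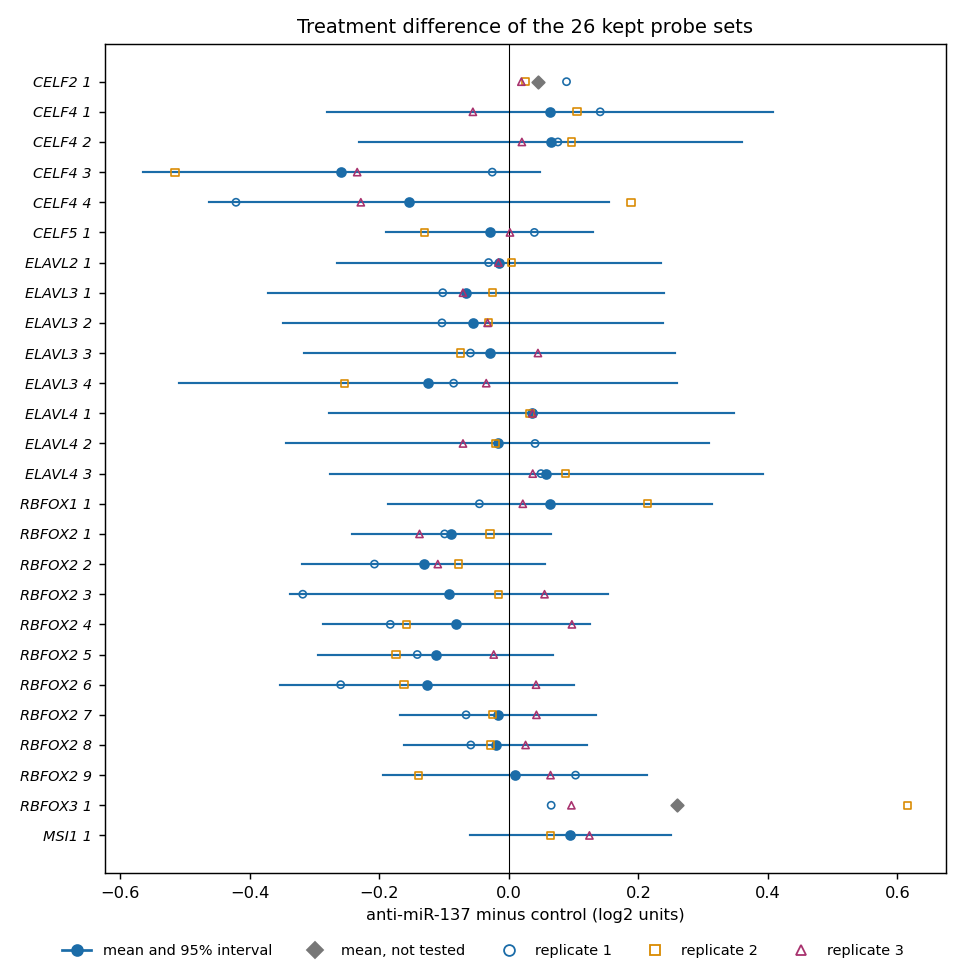
The horizontal axis is the anti-miR-137 minus control difference in log2 units for each of the 26 kept probe sets, numbered within each gene from brightest to dimmest. Filled circles with bars are means with 95% confidence intervals, diamonds are means of the 2 untested genes, and open symbols are the differences within replicates 1, 2 and 3; every interval includes 0, and the open square of *RBFOX3* at 0.62 stands far from the other 2.

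The *ELAVL* genes separated by replicate number more than by inhibitor, although none passed the test as set. All 8 *ELAVL* probe sets had higher means in the replicate 3 arrays than in the replicate 1 arrays, by 0.25 to 0.47 log2 units, and in all 8 both replicate 3 arrays were above both replicate 1 arrays. That separation was common: it held for 32.9% of all kept probe sets. *ELAVL4* averaged 12.25 over the 2 replicate 3 arrays and 11.85 over the 2 replicate 1 arrays, with 12.04 in replicate 2, a 1.32-fold difference between replicates 3 and 1. *ELAVL3* averaged 11.80 in replicate 3 and 11.43 in replicate 1, and replicate 2 (11.71) was nearer to replicate 3. *ELAVL2* averaged 9.58 in replicate 3 and 9.33 in replicate 1, and replicate 2 (9.32) was level with replicate 1. The other probe sets of these genes gave the same order of replicates 3 and 1. The dimmest of *ELAVL3* measured 6.96, 7.27 and 7.46 in anti-miR-137 arrays and 7.05, 7.52 and 7.49 in control arrays, with the largest replicate 3 minus replicate 1 difference of the family, 0.47. The dimmest of *ELAVL4* measured 10.97, 11.18 and 11.40 in anti-miR-137 arrays and 10.92, 11.09 and 11.37 in control arrays, a replicate difference of 0.44. The 3 neuronal *ELAVL* genes therefore shared the order of replicates 3 and 1, while the place of replicate 2 varied. *ELAVL1*, the broadly expressed relative, had a replicate 3 minus replicate 1 difference of -0.10 (limma F test, adjusted p = 0.52).

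The size of these differences was near the threshold of the test. The replicate number was tested by a moderated F test in limma with treatment in the model. After adjustment, at p under 0.05, 0 of 24 tested probe sets passed, against 0.0109% of all kept probe sets, and the smallest adjusted p was 0.076, for a probe set of *ELAVL4*. The unadjusted p was under 0.05 for 10 of 24 (41.7%), against 21.6% of all kept probe sets. These were all 8 *ELAVL* probe sets and 2 of *CELF4*. Those 10 probe sets belong to 4 genes, and probe sets of 1 gene are not independent. *ELAVL4* had an adjusted p of 0.083, *ELAVL3* 0.089 and *ELAVL2* 0.13 on their brightest probe sets in this limma F test. The call depended on how the variance was modelled. With a variance prior that follows the signal level, 10 of 24 passed at an adjusted p under 0.05, against 11.4% of all kept probe sets, and with the filter at the 60th percentile 10 of 20 passed, against 9.44%; in both cases they belonged to *ELAVL2*, *ELAVL3*, *ELAVL4* and *CELF4*. Averaging the probe sets of a gene left *ELAVL3* and *ELAVL4* past the threshold, 2 of 8 genes, against 3.23% of all genes. Array weights left 1 *ELAVL4* probe set (2.41% of all), and a threshold of 0.1, chosen after the values were seen, gave 8 of 24 (5.36% of all), from *CELF4*, *ELAVL3* and *ELAVL4*. Without anti-miR-137 replicate 2, 1 *ELAVL3* probe set passed (3.15% of all), and without control replicate 2, 1 each of *ELAVL3* and *ELAVL4* (5.06%). No member passed with 1 probe set per gene (2.53% of all called), without probe sets that may cross-hybridise (0.524%), or with the replicate number as the only term (2.17%). With no filter no member passed either (0% of all), and the smallest member adjusted p was 0.19 in the limma F test. When an array of replicate 1 or replicate 3 was left out, from either group, 0 of 24 passed (0% of all each time). The calls with an array left out thus came only from leaving out a replicate 2 array.

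**Figure D3:**
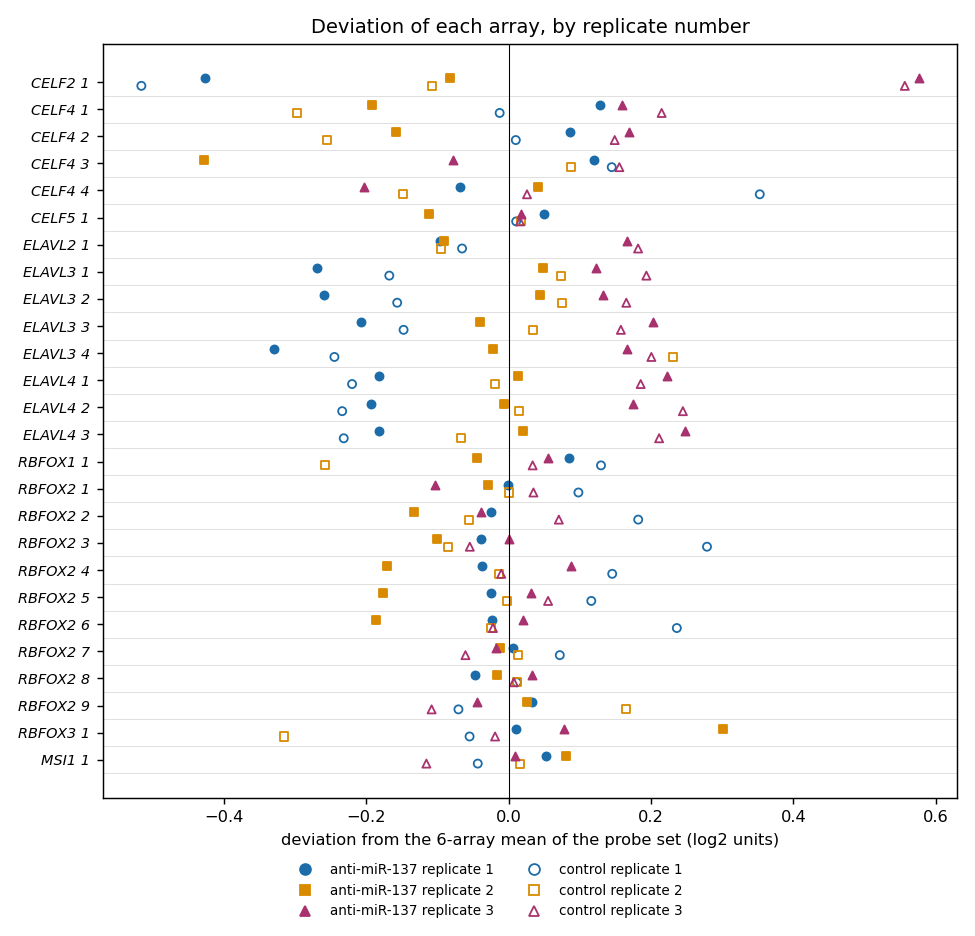
Each row is 1 kept probe set and the horizontal axis is the deviation of an array from the 6-array mean of that probe set in log2 units; filled symbols are anti-miR-137 arrays, open symbols control arrays, and shape and colour give the replicate number. In the 8 *ELAVL* rows both triangles (replicate 3) lie right of both circles (replicate 1), while in 3 of the 9 *RBFOX2* rows both squares (replicate 2) lie left of the 4 other symbols.

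*CELF2* had the greatest span of the kept members, given as a description. Its only kept probe set carries a suffix that marks possible cross-hybridisation. Its replicate 3 arrays averaged 6.69 and its replicate 1 arrays 5.65, and replicate 2 lay between at 6.03. The replicate 1 mean lay under the 5.69 used to set dim probe sets aside and under the 95th percentile of the olfactory receptor probe sets, so no fold is given, and the probe set was kept through the arrays where it is high. The difference between arrays of the same number was between 0.019 and 0.089. A dim probe set of *CELF2* showed a difference of 1.02 between replicates 3 and 1, and the 9 dim probe sets ranged from -0.14 to 1.02. In 6 of the 26 kept probe sets both replicate 2 arrays were below the 4 others: 2 of *CELF4*, 3 of *RBFOX2* and 1 of *RBFOX1*. This order held for 5.17% of all kept probe sets. In *CELF4* it was seen on the 2 brightest probe sets. The brightest averaged 9.01 in replicate 2, 9.45 in replicate 3 and 9.32 in replicate 1 (limma F test, adjusted p = 0.095). Its 2 dimmer kept probe sets had lower means in replicate 3 than in replicate 1, with differences of -0.094 and -0.23. *RBFOX1* averaged 5.90 in replicate 2, 6.09 in replicate 3 and 6.16 in replicate 1. *CELF5*, *RBFOX2* and *MSI1* had replicate 3 minus replicate 1 differences of -0.013, -0.083 and -0.058, with adjusted p between 0.58 and 0.73 in the limma F test. *RBFOX1* had -0.062 (adjusted p = 0.24 in the same test). *RBFOX3* had 0.051, small beside its gap of 0.62 within replicate 2, and -0.094 to 0.20 with an array left out.

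Of 5 marker lists, 3 had most of their genes on 1 side between replicates 3 and 1, and 2 did not. Of 12 sympathetic noradrenergic markers, 10 had a probe set and all 10 were kept, including *PHOX2A*, *HAND2*, *GATA3* and the enzymes *TH* and *DBH*, which mark the lineage of this line. Their mean deviation ranged from -0.054 to 0.036 in anti-miR-137 arrays and from -0.040 to 0.084 in control arrays. Over all kept probe sets, 52% had higher means in replicate 3 than in replicate 1. All 19 kept genes of a list of 20 cell cycle genes were higher in replicate 3 than in replicate 1, with a median difference of 0.43. That list deviated by 0.27 and 0.24 in the anti-miR-137 and control arrays of replicate 3 and by -0.19 and -0.24 in those of replicate 1. Of 16 neuronal differentiation genes, 14 were higher in replicate 3 than in replicate 1, with a median of 0.25. Of 7 kept mesenchymal genes, 6 were lower in replicate 3, with a median of -0.33. Of 8 glial and Schwann cell genes, 6 had a probe set and 4 were kept, and 2 of the 4 had higher and 2 lower means in replicate 3 than in replicate 1. With treatment, 2 of these 4 had an unadjusted p under 0.05 in limma, against 2.49% of all kept probe sets. The groups of these 2 did not overlap, where the share over all kept probe sets was 6.9%. Both had an adjusted p of 1.00 in limma. *OLIG2* averaged 6.01 ± 0.052 in anti-miR-137 arrays and 5.74 ± 0.047 in control arrays (SD, n = 3 each). *GFAP* averaged 7.52 ± 0.067 in anti-miR-137 arrays and 7.31 ± 0.051 in control arrays. The 2 others, *S100B* and *SOX10*, had lower means in anti-miR-137 arrays, with differences of -0.035 and -0.069. The 6-array mean of *OLIG2*, 5.88, lay under 6.06, the 95th percentile of the olfactory receptor probe sets. The *GFAP* probe set carries a suffix that marks possible cross-hybridisation. For the noradrenergic genes, 6 had higher and 4 lower means in replicate 3, with a median of 0.028. No gene of these lists passed the F test at an adjusted p under 0.05 in limma. The part of cell cycle, cell density or RNA handling in the *ELAVL* and *CELF2* values was not tested. In these bulk samples a different share of cells and a different amount of RNA per cell cannot be told apart.

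**Figure D4:**
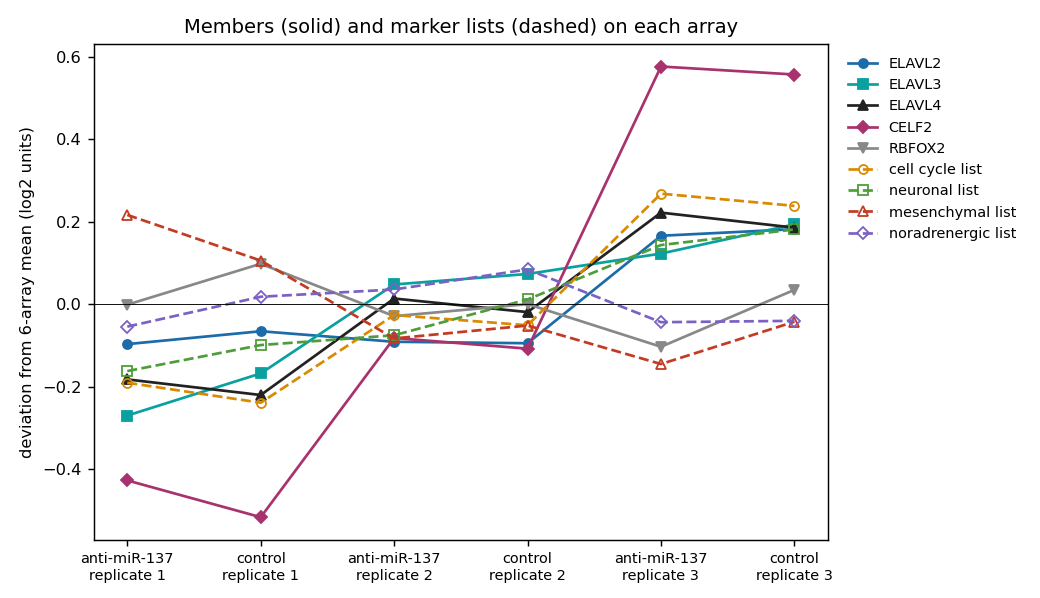
The vertical axis is the deviation from the 6-array mean in log2 units on each array; solid lines are the brightest probe sets of 5 genes and dashed lines the means of 4 marker lists, and lines only join the points of 1 item. *ELAVL4*, the neuronal list and the cell cycle list are low on both replicate 1 arrays and high on both replicate 3 arrays, while *RBFOX2* stays within 0.11 of its mean.

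The genes whose values followed these members most closely over the 6 arrays were found by Pearson's r among 12629 other genes, as a description. For *ELAVL4* they were *BEX1* (r = 0.9997), *ZNF93* (0.9988), *OIP5* (0.9969) and the replication licensing factor *MCM2* (0.9966). For *ELAVL3* they were *SCN3B* (0.9968), *ATF7* (0.9962), *POP4* (0.9954) and *CADM1* (0.993), and for *CELF4* they were *ZNF670* (0.987), *RRAGD* (0.974), *ZNF484* (0.970) and *PKM* (0.960). In all, 420 genes had r over 0.95 with *ELAVL4*, 120 with *ELAVL3* and 10 with *CELF4*. These members were chosen by the smallest replicate-number p on their brightest probe sets, with *CELF2* and *RBFOX3* left out. Genes with the same order of replicate numbers therefore score high by that choice. The count for other genes was not taken, and shared regulation was not tested.

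No other RNA-binding protein among those listed passed either test. Of 42 listed, 40 had a probe set and 33 were kept on their brightest one. With treatment, 0 of 33 passed in limma at an adjusted p under 0.05 and 3 had an unadjusted p under 0.05, where 2.49% of all kept probe sets did; the mean of 11 was higher and that of 22 lower in anti-miR-137 arrays, with a median of -0.044. *CPEB1*, a factor of cytoplasmic polyadenylation, had the smallest unadjusted p, with 6.81, 6.79 and 6.90 in anti-miR-137 arrays and 7.03, 7.05 and 7.26 in control arrays. Those groups did not overlap, the difference was -0.28, and the limma adjusted p was 1.00. Its relative *CPEB4* measured 8.65 ± 0.014 in anti-miR-137 arrays and 8.82 ± 0.089 in control arrays (SD, n = 3 each), a difference of -0.18 (limma, adjusted p = 1.00).

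With the replicate number, 0 of these 33 genes passed and 6 had an unadjusted p under 0.05, where 21.6% of all kept probe sets did, so the count is no higher than over the whole table. The values of the 4 genes with the smallest p are given as a description. *LIN28B*, which blocks maturation of the microRNA let-7, had a replicate 3 minus replicate 1 difference of 0.37 (limma F test, adjusted p = 0.066). *SRRM4*, an activator of neuronal microexons, had 0.48 (limma F test, adjusted p = 0.082). *MBNL2*, a muscleblind splicing factor, had a difference of -0.43 (limma F test, adjusted p = 0.090). The mRNA-binding factor *IGF2BP1* had -0.35 (limma F test, adjusted p = 0.18). Its means in replicates 2 and 3, 5.86 and 5.77, lay under 6.06, the 95th percentile of the olfactory receptor probe sets.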

How the data were processed

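Total RNA of 6 SH-SY5Y samples, 3 per group, was measured on 1-colour oligonucleotide arrays from 100 ng of RNA with biotin labelling, per the labels' protocols. The authors made and deposited 1 log2 value per probe set and array with RMA in R 3.0.1, per the submitters' processing notes. RMA makes the array distributions alike, so a shift of all transcripts together cannot be seen. Array medians lay between 6.39 and 6.43, and RNA integrity numbers between 9.5 and 9.8. All 6 columns differed from each other, and having 3 arrays a group sets the precision.

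Of 49393 probe sets besides controls, 45278 had 1 gene symbol in the platform annotation, 1333 had several and 2782 had none. For 45208 the gene identifier was found in RefSeq (GRCh38.p14), which changed 0 symbols. Of the members' 48 probe sets, 9 carry a suffix that marks possible cross-hybridisation. Groups were compared per kept probe set with lmFit and eBayes of limma 3.58.1, two-sided, run in R 4.3.3, with Benjamini-Hochberg adjustment over 27514 kept probe sets and a threshold of 0.05, with treatment as the only term. The replicate number was tested with treatment in the model. The steps were tested on simulated data with added shifts of 1 log2 unit. Noise was drawn independently for each array, so the replicate pattern of these arrays was not simulated.

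The members and lists were chosen with earlier results of these data known. All members are named, by the brightest probe set; from the related list, the 4 genes with the smallest replicate p and the 2 with the smallest treatment p; and for 3 members the 4 genes with the highest r. The alternatives were other filters, gene summaries, normalizations, variance priors, array weights, the replicate block, RNA integrity as a covariate, and each array left out. An adjusted threshold of 0.1 was added after seeing the data.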

Additional observations from a re-analysis of the deposited data

How the results depend on the processing

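The count of 0 member probe sets called between anti-miR-137 and control arrays stayed at 0 in each alternative fitted, including the replicate number as a block (0 called, 0 over all probe sets) and each left-out array (0 to 0). Without adjustment, 1 of 24 had p under 0.05 in limma with the replicate block, array weights, RNA integrity as a covariate, and without anti-miR-137 replicate 1. Over all 27514 kept probe sets those settings gave 1648, 2384, 895 and 866. With no filter the member count was 1 of 35, against 1556 of 45278. The labels do not say that a number marks a shared culture, so the main test did not take the numbers as pairs. The deviations of the arrays that share a number correlated in replicates 1 and 3 (0.52 and 0.62) and hardly in replicate 2 (0.040). With the replicate block 1648 of all kept probe sets had an unadjusted p under 0.05 in limma, against 685 without it. Intervals given without the block include the spread between replicate numbers. Counts for the replicate number depended on the settings, and the cause was not tested. Member probe sets or genes called were 10 with the 60th percentile filter, 10 with a trended variance prior, 2 with averaged probe sets and 1 with array weights. The count was 0 with no filter and 8 at an adjusted threshold of 0.1 (chosen after seeing the data). Over all probe sets the count was 3, and it was 0 with no filter, 1735 with the 60th percentile filter, 320 with 1 probe set per gene, 408 with averaged probe sets, 96 without probe sets that may cross-hybridise, 3128 with the trend, 663 with array weights, 598 without treatment in the model, 1474 at the threshold of 0.1 and 0 to 1392 with an array left out.

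Small treatment differences changed sign: *CELF4* with averaged probe sets (-0.071) and with RNA integrity as a covariate (-0.074), *ELAVL2* with quantile normalization (0.0041) and RNA integrity (0.0086), *ELAVL3* (0.088) and *RBFOX1* (-0.036) with RNA integrity, and *CELF2* with array weights (-0.0054). With an array left out, treatment differences ranged from -0.23 to 0.33 for *CELF2*, -0.069 to 0.19 for *CELF4*, -0.062 to 0.019 for *CELF5*, -0.10 to 0.073 for *ELAVL2*, -0.17 to 0.052 for *ELAVL3*, -0.066 to 0.14 for *ELAVL4* and -0.050 to 0.14 for *RBFOX1*. For replicate 3 minus replicate 1, *CELF4* gave -0.021 with averaged probe sets, *CELF5* 0.0099 with median centring and -0.065 to 0.038 with an array left out, and *RBFOX1* -0.14 to 0.019 and *RBFOX3* -0.094 to 0.20 with an array left out; for *ELAVL2*, *ELAVL3* and *ELAVL4* it kept its sign under every alternative run.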
